A study of Homo sapiens with 2 samples.

Results

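Expressed ZNF zinc finger genes were described in A549, an established cell line from a human lung adenocarcinoma, kept for 4 h under mechanical stretch or for 4 h without it (static culture). The members were the genes whose symbol is ZNF, a number and at most 1 further letter, each represented by its brightest probe set, whose signal reached 4.55 on at least 1 array. This bound was the 95th percentile of genes of unrelated tissues in an earlier reading of these arrays, and all 15 genes of unrelated tissues measured here lay under it, the highest at 4.45. The rule kept 144 of 471 ZNF genes with a named probe set, among 14884 named genes in all. Of the 144, 142 are protein-coding and 2, ZNF271P and ZNF767P, are transcribed pseudogenes. The members were chosen by the signals of both arrays, so their levels and differences are a description. Each condition has 1 array, which allows no test between conditions.

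RNA was labelled as biotinylated cRNA and hybridised to Affymetrix arrays, 1 for the stretched cells and 1 for the static cells, each with 53617 probe sets. The number of arrays limits the precision, and the sources used here give neither the number of cultures behind each RNA nor the settings of the stretch. The title of the stretched sample writes the line as A594, while its source name gives A549. All values are log2 signals, and each difference is stretch minus static, so 1 stands for a 2-fold change. Of 15 markers of A549 and epithelium, 6 were named here. KRT18, a simple-epithelium keratin, stood at 11.00 on the stretched and 10.29 on the static array, and TXNRD1, a thioredoxin reductase abundant in A549, at 8.56 and 7.41 (1.15). KRT7 read 7.56 on the stretched and 5.41 on the static array (2.15), KRT8 5.47 and 4.60 (0.87), and EPCAM 4.71 and 5.30 (-0.59). KRT19 lay under the bound on both, at 3.78 and 3.77. Of 14 markers of other cell types, 5 were named. CD68 (8.58 stretched, 7.51 static) and CD14 (5.53 and 5.13) passed the bound, while VWF, LUM and PECAM1 lay under it on both arrays. Whether these markers bear on the ZNF values was not tested.

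Most ZNF proteins carry tandem C2H2 fingers, in which a pair of cysteines and a pair of histidines hold a zinc ion and each finger reads a few bases of DNA. Many also carry a KRAB domain, which recruits the scaffold TRIM28 and through it the histone methyltransferase SETDB1, so that bound DNA, often of transposable elements, is silenced. KRAB zinc finger genes have multiplied by tandem duplication and lie in clusters, above all on chromosome 19. Other ZNF proteins act in chromatin complexes, bind RNA, or serve ribosomes and the mitotic spindle.

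Shown first are the promoters of the 3 members with the highest differences. Those of the member with the lowest difference and of the member with the highest level follow. Each line gives the 250 bases before the start of the gene, 5′ to 3′, from RefSeq (GRCh38.p14), with matches to the motifs listed later in capitals.
ZNF451 promoter, chr6:57089938-57090187, plus strand: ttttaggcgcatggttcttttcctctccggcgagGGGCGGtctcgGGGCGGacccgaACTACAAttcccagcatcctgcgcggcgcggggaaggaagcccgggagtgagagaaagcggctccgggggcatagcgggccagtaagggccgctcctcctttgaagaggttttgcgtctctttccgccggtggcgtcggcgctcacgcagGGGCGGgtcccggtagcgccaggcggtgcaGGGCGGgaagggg
ZNF776 promoter, chr19:57746565-57746814, plus strand: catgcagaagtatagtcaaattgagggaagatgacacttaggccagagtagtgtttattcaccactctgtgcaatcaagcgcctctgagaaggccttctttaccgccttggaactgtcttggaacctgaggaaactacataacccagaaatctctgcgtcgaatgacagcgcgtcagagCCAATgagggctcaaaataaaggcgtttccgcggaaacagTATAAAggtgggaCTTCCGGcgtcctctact
ZNF79 promoter, chr9:127424132-127424381, plus strand: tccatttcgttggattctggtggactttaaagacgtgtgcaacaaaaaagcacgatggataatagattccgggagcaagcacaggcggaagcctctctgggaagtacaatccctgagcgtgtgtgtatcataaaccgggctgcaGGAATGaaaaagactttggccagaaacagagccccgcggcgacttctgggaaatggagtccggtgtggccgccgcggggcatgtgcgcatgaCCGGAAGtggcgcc
ZNF652 promoter, chr17:49362251-49362500, minus strand: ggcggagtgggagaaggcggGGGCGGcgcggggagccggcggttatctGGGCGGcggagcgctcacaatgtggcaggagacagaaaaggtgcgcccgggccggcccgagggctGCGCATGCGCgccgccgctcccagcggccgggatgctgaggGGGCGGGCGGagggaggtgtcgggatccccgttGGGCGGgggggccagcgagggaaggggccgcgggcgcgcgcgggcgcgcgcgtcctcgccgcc
ZNF207 promoter, chr17:32349907-32350156, plus strand: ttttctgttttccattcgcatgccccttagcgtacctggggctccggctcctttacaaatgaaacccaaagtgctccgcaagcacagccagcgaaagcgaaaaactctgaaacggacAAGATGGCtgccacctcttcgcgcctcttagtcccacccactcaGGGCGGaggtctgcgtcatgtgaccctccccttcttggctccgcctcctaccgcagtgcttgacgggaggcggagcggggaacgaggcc
ZNF451 held 4 GC boxes and 1 ZNF143 motif, ZNF776 a TATA box, a CCAAT box and an ETS motif, and ZNF79 an ETS and a TEAD motif. ZNF652 and ZNF207 both held GC boxes, with overlapping NRF1 matches in ZNF652 and a YY1 motif in ZNF207. A match says only that these letters occur in the window.

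The 471 measured ZNF genes had a median signal of 3.56 on the stretched and 3.33 on the static array, and all 14884 named genes 3.67 and 3.53. The bound was passed by 30.6% of the ZNF genes, against 40.3% of all named genes. Signals of different probe sets also differ with their probes, so these shares do not rank transcript levels. Of the 144 members, 84 reached 4.55 on both arrays, 57 on the stretched array alone and 3 on the static array alone. The 3 were ZNF484, ZNF624 and ZNF618. Of all 6005 named genes past the bound, 4675 reached it on both arrays, 1086 on the stretched array alone and 244 on the static array alone. Just inside the bound lay ZNF764 (higher value 4.55), ZNF514 (4.56) and ZNF263 (4.58). Just outside lay ZNF200 (4.54), ZNF445 (4.53) and ZNF576 (4.53).

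Most members read higher on the stretched array, as did most genes of similar standing. Of the 144, 120 lay above 0, 23 below and 1 at 0, with a median difference of 0.54 and an interquartile range from 0.18 to 0.96. Of all 6005 named genes past the same bound, 4552 lay above 0, 1418 below and 35 at 0, with a median of 0.43. The rule fixed some of these signs. The 57 members past the bound on the stretched array alone lie above 0 by selection, and the 3 on the static array alone below. At least 2-fold higher were 33 members, or 22.9%, against a background of 18.9% of the 6005 genes. At least 2-fold lower were 0 members, against 2.3% of those genes, and 1.41% of the protein-coding ones. At 1.5-fold, 65 members were higher (background 39.7%) and 1, ZNF652, was lower (background 5.3%). The members' counts of higher genes thus lay close to the background. Of the 33, 26 had a static value under 4.55 and 7 passed the bound on both arrays. Of the 1137 genes at least 2-fold higher among the 6005, 606 passed the bound on both arrays.

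**Figure D1:**
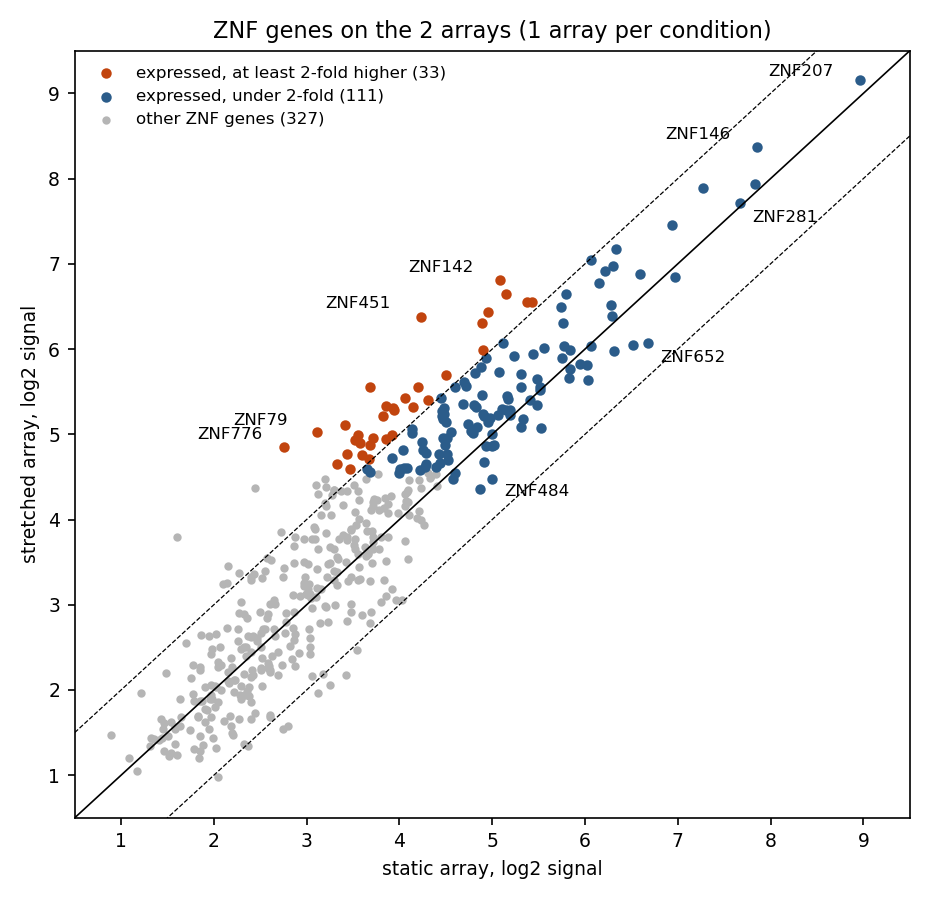
Each point is 1 ZNF gene, with its log2 signal on the static array (x axis) and on the stretched array (y axis). The solid line marks equal signal, the dashed lines a 2-fold difference. Of 144 expressed genes, 33 (orange) lie on or above the upper dashed line and 0 below the lower one, and grey points are the 327 ZNF genes under the bound.

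The scaling of the arrays moved both the members and the background. Centring on 8 reference genes took the median of their differences, 0.375, off each difference. Those 8 differences ranged from -0.22 for B2M to 1.72 for PPIA, so this centre is not firm. With this centring, 14 members were 2-fold or more higher (9.72%, against 8.43% of all genes) and 0 were lower (against 4.95%). Of the members, 59 then lay below 0, and the median was 0.16, against 0.055 over all genes. How many of all genes then lay below 0 was not counted. Centring on the array medians gave 43 higher (29.9%, against 23.2% of all genes), 0 lower (against 1.82%) and a median of 0.635. Quantile normalization gave 19 higher (13.2%, against 9.08%), 1 lower (against 4.75%), which was ZNF652 at -1.0, and a median of 0.17. A loess curve on level gave 21 higher (14.6%, against 9.79%), 0 lower (against 4.33%) and a median of 0.23. Among all genes past the bound, those higher made up 89.2% of the genes past 2-fold as deposited, and 63.0%, 65.7% and 69.3% under reference-gene centring, quantile normalization and loess. The members' median exceeded that of all genes by 0.105 as deposited and by 0.105, 0.11 and 0.12 under these 3. Reference-gene centring could not change this excess, since it takes the same 0.375 off every difference. With the bound set on the mean of both values, which favours neither array, the excess was 0.01 over 113 members, and 17 of these were at least 2-fold higher (15.0%, against 17.0% of all genes chosen in the same way). With the bound on both values, chosen after seeing the data, the excess was -0.08, from medians of 0.26 over 84 members and 0.34 over 4675 genes.

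**Figure D2:**
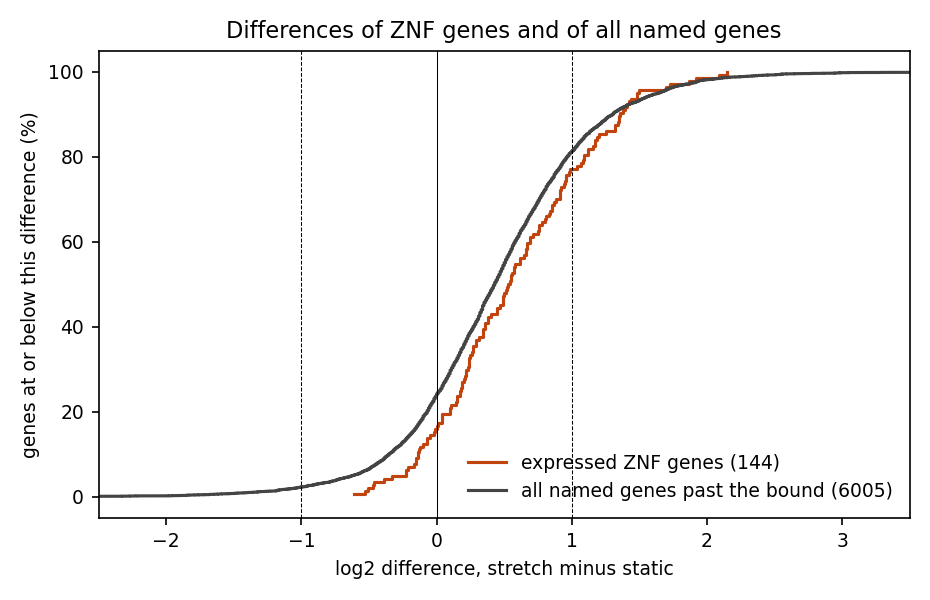
Cumulative share of genes (y axis, percent) by log2 difference, stretch minus static (x axis), for the 144 expressed ZNF genes (orange) and all 6005 named genes past the bound (grey). The ZNF curve ends at -0.61 and 2.15, has its median at 0.54 against 0.43, and lacks the lower tail of the other curve.

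By mean signal of both arrays, 31 members lay under the bound and had entered through 1 array, so that the rule itself set them apart on the arrays. Among these 31 were 16 of the 33 (51.6% of the 31), against 34.8% of 587 other named genes that entered in the same way. Between the bound and 5, 8 of 37 members (21.6%) were at least 2-fold higher, against 18.4% of 947 other named genes at that level. Between 5 and 6, 9 of 54 members (16.7%) were, against 21.6% of 1807 genes. At 6 or more, 0 of 16 and 0 of 6 members were, against 17.1% of 1284 genes between 6 and 7 and 9.47% of 1236 genes above. Of the 84 members past the bound on both arrays, 7 (8.33%) were at least 2-fold higher, against 12.96% of 4675 genes.

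ZNF451, a SUMO ligase that extends chains of the small modifier SUMO, had the highest difference. Its signal was 6.38 on the stretched and 4.23 on the static array, a difference of 2.15 (4.44-fold). Its second, dimmer probe set read 4.05 and 4.02, so the gene stood at 1.09 with both averaged. ZNF776, a KRAB protein, followed with 4.85 on the stretched against 2.76 on the static array (2.09). ZNF79, also a KRAB protein, read 5.03 and 3.11 (1.92), and ZNF518A 5.55 and 3.68 (1.87). The static values of these 4 genes lay under the bound, so their order is not firm.

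ZNF142, variants of which underlie a neurodevelopmental disorder, had the highest difference among members past the bound on both arrays, 6.81 on the stretched against 5.08 on the static array (1.73, or 3.32-fold). The KRAB genes ZNF460 (6.65 stretched, 5.15 static) and ZNF317 (6.44 and 4.96) came next within that set, at 1.5 and 1.48, followed by ZNF574 (6.31 and 4.89) at 1.42. ZNF512 at 1.17, ZNF106 at 1.12 and ZNF346 at 1.09 complete the 7. ZNF319 (1.70), ZNF322 (1.48), a gene reported as oncogenic in lung cancer, and ZNF845 (1.44) had static values under the bound. ZNF322 read 5.33 on the stretched and 3.85 on the static array, and its dimmer probe set 2.96 and 2.41.

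Another 11 of the 33 ranged from 1.07 (ZNF850) to 1.41 (ZNF768). They are ZNF768, ZNF343, ZNF71, ZNF26, ZNF749, ZNF587B, ZNF3, ZNF791, ZNF672, ZNF182 and ZNF850. Their stretched values lay between 4.59 and 5.40 and their static values between 3.33 and 4.31, so that all 11 crossed the bound between the arrays. Between 1.5-fold and 2-fold higher were 32 members, from 0.62 for ZNF766 and ZNF121 to 0.99 for ZNF592, of which 18 passed the bound on both arrays. A further 78 members differed by less than 1.5-fold either way.

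The 10 lowest differences lay between -0.61 and -0.21. ZNF652, a DNA-binding partner of the co-repressor CBFA2T3, read 6.07 on the stretched and 6.68 on the static array (-0.61). ZNF484 read 4.47 and 5.00 (-0.53) and ZNF624 4.36 and 4.87 (-0.51). ZNF326, of the complex that couples RNA polymerase II elongation to splicing, read 6.05 on the stretched and 6.52 on the static array (-0.47). ZNF747 (-0.46), ZNF148 (-0.39), ZNF277 (-0.33), ZNF407 (-0.23), ZNF805 (-0.23) and ZNF581 (-0.21) followed. The SD of the differences of the 15 unrelated-tissue genes was 0.38, which is the scale of dim signals only.

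**Figure D3:**
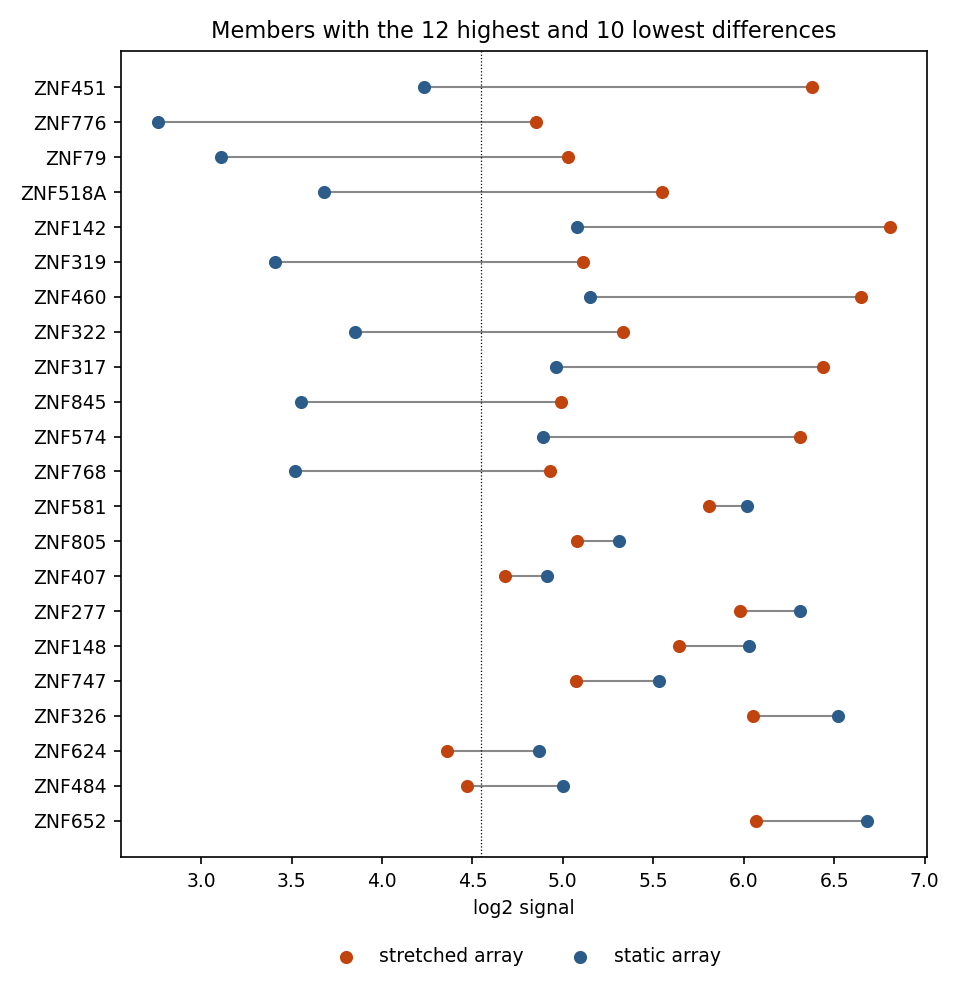
Log2 signal (x axis) on the stretched (orange) and static (blue) array for the members with the 12 highest and the 10 lowest differences, from the highest at the top. The dotted line is the bound of 4.55, and the lines of the upper genes are longer than those of the lower genes, with ZNF451 at 2.15 and ZNF652 at -0.61.

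The 8 brightest members had differences from -0.13 (ZNF638) to 0.84 (ZNF384). ZNF207, which carries the checkpoint protein BUB3 to kinetochores, read 9.16 on the stretched and 8.96 on the static array (0.20). ZNF146, a protein made almost entirely of fingers, read 8.37 and 7.85 (0.52), and ZNF280C 7.94 and 7.83 (0.11). ZNF281, a GC-rich sequence binder linked to epithelial-mesenchymal transition, read 7.71 and 7.67 (0.04). ZNF121 (0.62), ZNF532 (0.51), ZNF638 (-0.13) and ZNF384 (0.84) completed the 8 brightest. The signs of ZNF207, ZNF280C and ZNF281 turn when arrays are centred on reference genes, as does that of every member between 0 and 0.375.

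Of 12 listed genes known to act on RNA or ribosomes 11 were measured, all past the bound, with 3 past 2-fold upward (background 18.9%), 0 downward and a median of 0.38, against 0.43 over all genes. ZNF330, a nucleolar protein, read 5.32 on the stretched and 4.15 on the static array (1.17). ZNF106, an RNA-binding protein of splicing control, read 6.55 and 5.43 (1.12). ZNF346, which binds double-stranded RNA, read 5.99 and 4.90 (1.09). The ligase of collided ribosomes, ZNF598, stood at 0.81, the 60S subunit maturation factor ZNF622 at 0.69 and its fellow ribosome factor ZNF593 at 0.38. ZNF473, of histone mRNA processing, stood at 0.22 and ZNF207 at 0.20. Of the 11, 8 lay above 0 and 3 below, which were ZNF638 (-0.13), ZNF277 (-0.33) and ZNF326 (-0.47).

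Sequence-specific regulators outside the KRAB class had a median of 0.46 over 10 members, of 12 genes measured, with 1 past 2-fold upward, where the background is 18.9%, and 0 downward. The 1 was ZNF24, a SCAN domain protein, at 5.42 on the stretched and 4.06 on the static array (1.36). ZNF384 read 7.17 and 6.33 (0.84), but its dimmer probe set read 3.54 and 4.36 (-0.82). ZNF143, an activator bound at many promoters, stood at 0.27, and ZNF148 at -0.39. ZNF410, known as a dedicated activator of the chromatin remodeller gene CHD4, read 5.12 on the stretched and 4.74 on the static array (0.38), and CHD4 itself 7.49 and 6.95 (0.54).

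The list of chromatin and co-repressor proteins held 17 members among 24 genes measured, with 5 past 2-fold upward (background 18.9%), 0 downward and a median of 0.51. Over all 24 measured genes the median was 0.225. Besides ZNF451, ZNF518A and ZNF142 the 5 were ZNF462 (5.55 stretched, 4.20 static, 1.35) and ZNF512 (6.55 and 5.38, 1.17). The 3 paralogs that join the reader ZMYND8 in a complex were ZNF592 at 0.99, ZNF532 at 0.51 and ZNF687 at 0.21. ZNF217, an amplified oncogene product that works with LSD1 and CoREST, read 6.52 on the stretched and 6.28 on the static array (0.24). ZNF335, of a histone methyltransferase complex, stood at 0.96 and ZNF652 at -0.61.

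Among KRAB genes with described targets, 9 of 23 measured were members, counting ZNF395, which carries no KRAB domain, and their median was 0.66, with 4 past 2-fold upward (background 18.9%) and 0 downward. Over all 23 measured genes the median was 0.29. The 4 were ZNF317 (1.48), ZNF202, a repressor of lipid metabolism genes (4.77 stretched, 3.43 static, 1.34), ZNF746, the parkin substrate that represses PPARGC1A (5.70 and 4.50, 1.20), and ZNF268 (1.04). ZNF274, which brings SETDB1 to zinc finger genes themselves, read 4.77 on the stretched and 4.43 on the static array (0.34). ZNF91, a repressor of SVA transposons, and ZNF93, of LINE-1, lay under the bound. ZNF91 read 0.98 on the stretched and 2.05 on the static array (-1.07), and ZNF93 1.22 and 1.52. Also under the bound were ZNF420 (-1.16) and ZNF382 (-0.91), and on the other side of 0 ZNF350 (1.30) and ZNF267 (1.05).

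Of 18 listed cofactors through which KRAB proteins act, 15 were measured and 13 passed the bound. Of the 13, 9 lay above 0 and 4 below, with 2 past 2-fold upward (background 18.9%), 0 downward and a median of 0.54. TRIM28 read 8.31 on the stretched and 7.56 on the static array (0.75, or 1.68-fold), while SETDB1 was unnamed here. DNMT3B, a de novo DNA methyltransferase, read 4.84 and 3.19 (1.65). UHRF1, which brings DNMT1 to replicated DNA, stood at 1.30. MPHOSPH8, of the HUSH silencing complex, stood at 0.92, DNMT1 at 0.88 and MORC2 at 0.85. The heterochromatin proteins CBX3, CBX1 and CBX5 stood at 0.50, -0.03 and -0.13, and ATF7IP, which stabilises SETDB1, at -0.48. Zinc-handling genes were measured for 8 of 23 listed, of which 4 passed the bound, with 0 past 2-fold. MT1X, a metallothionein, read 8.72 on the stretched and 7.79 on the static array (0.93), the zinc sensor MTF1 7.27 and 6.69 (0.58), MT2A 7.15 and 6.66 (0.49), and MT1F 6.63 and 6.28 (0.35).

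Chromosome 19 held 226 of the 471 measured ZNF genes but 49 of the 144 members. Members thus made up 21.7% of the ZNF genes measured on chromosome 19 and 38.8% of the 245 elsewhere. Over all named genes, 37.7% passed the bound on chromosome 19 and 40.5% elsewhere. The members' median difference was 0.52 on chromosome 19 and 0.54 elsewhere. At least 2-fold higher were 11 of 49 members on chromosome 19, against 24.3% of all genes past the bound there, and 22 of 95 elsewhere, against 18.5%. Chromosome 7 had 13 members with a median of 0.91, and chromosome 17 had 5 with a median of -0.07, while all genes past the bound on these chromosomes had medians of 0.47 and 0.52. Chromosomes 2 and 12 had medians of 0.88 and 0.84 over 5 members each, against 0.36 and 0.405. Among those below all genes were also chromosomes 1 (0.21 against 0.455) and 18 (0.15 against 0.57). These chromosomes were picked after the values were seen, and 7 of the 13 members on chromosome 7 form the longest run below.

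**Figure D4:**
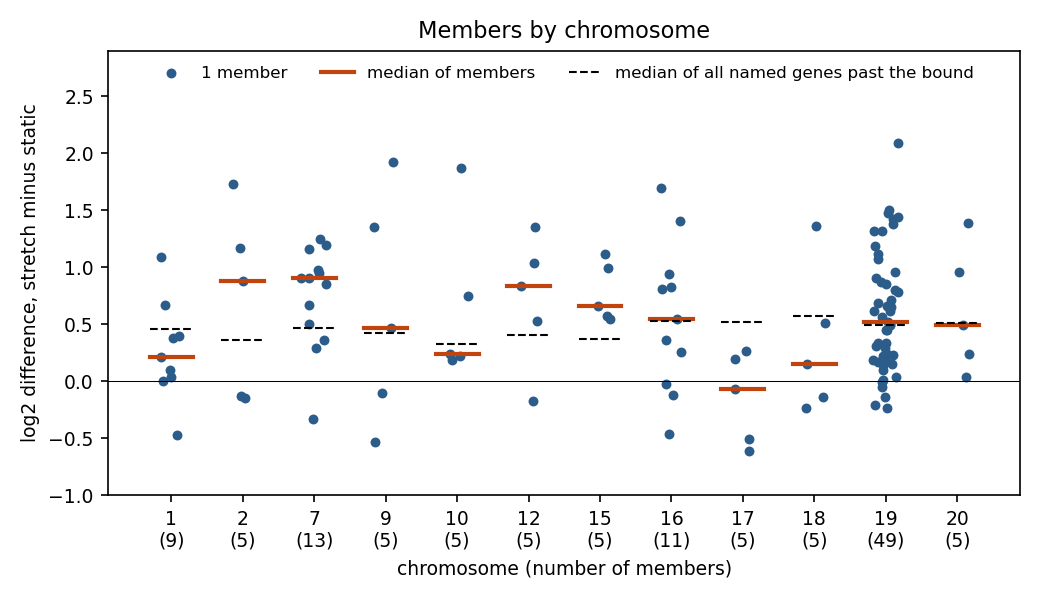
Log2 difference, stretch minus static (y axis), of each member by chromosome (x axis, chromosomes with at least 5 members). Orange lines are medians of the members and dashed lines medians of all named genes past the bound on that chromosome. On chromosome 7 the members' median is 0.91 against 0.47, and on chromosome 17 -0.07 against 0.52. Others lie apart too, such as chromosome 2 (0.88 against 0.36) and chromosome 18 (0.15 against 0.57).

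Neighbouring members were grouped into runs, in which each lay at most 5 genes from the next in RefSeq order, and 5 runs held 4 members or more. The longest, on chromosome 7, joined 7 members of 9 measured ZNF genes. ZNF746 (1.20), ZNF212 (1.16), ZNF398 (0.98), ZNF786 (0.91), ZNF282 (0.91), ZNF767P (0.50) and ZNF777 (0.36) were all above 0 as deposited, with ZNF777 turning below 0 when arrays are centred on reference genes. A member with a static value under the bound lies above 0 by the rule itself. In this run that held for ZNF746, ZNF212, ZNF398 and ZNF777, so their shared sign is no result. ZNF212 read 4.76 on the stretched and 3.60 on the static array, and ZNF282 5.72 and 4.81. On chromosome 19, the run from ZNF134 to ZNF587B held 5 members of 9 measured, from 0.04 for ZNF586 to 2.09 for ZNF776, with a median of 1.19. There ZNF551, ZNF776 and ZNF587B had static values under the bound, so the rule also raised this median. The run from ZNF805 to ZNF773 ranged from -0.23 to 1.5. The run on chromosome 16 from ZNF263 to ZNF597 stayed between -0.12 and 0.36. Members of a run can resemble each other in sequence, so that probe sets may cross-hybridise, which was not tested. As an example of close copies, ZNF780A stood at 0.49 and ZNF780B at -0.01.

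The promoters of 125 members were held in the RefSeq table and searched on both strands over the 250 bases before the start. The 12 motifs were the TATA box spelled TATAAA, the SP1 GC box spelled GGGCGG, the pentamer CCAAT, the ETS core CCGGAAG, the NRF1 core GCGCANGC, the YY1 core AAGATGGC, the cyclic AMP response element or CRE with TGACGTCA, the E-box with CACGTG, the Kaiso core CTCGCGAG, the ZNF143 core ACTACAA, the TEAD site GGAATG and the AP-1 site TGANTCA. No motif contains another, and each was counted on its own. The ETS motif was present in 34.4% of members' promoters, in 27.4% of those of the 270 ZNF genes under the bound, in 17.4% of 4714 other named genes past it, and in 8.82% of all 27305 promoters. The ETS sites of ZNF776 and ZNF79 shown above, written on opposite strands, are of this kind. A TATA box was present in 1.60% of members' promoters, 3.70% of the other ZNF genes', 4.73% of the other expressed genes' and 11.1% of all. The CCAAT box was found in 36.0% of members and 50.7% of the ZNF genes under the bound, against 35.9% of the other expressed genes and 33.0% of all promoters. The median GC content was 64.0% in members, 59.2% in ZNF genes under the bound and 65.6% in other expressed genes. Of the 43 members with an ETS motif 10 were at least 2-fold higher (23.3%), and of the 82 without one 20 were (24.4%).

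**Figure D5:**
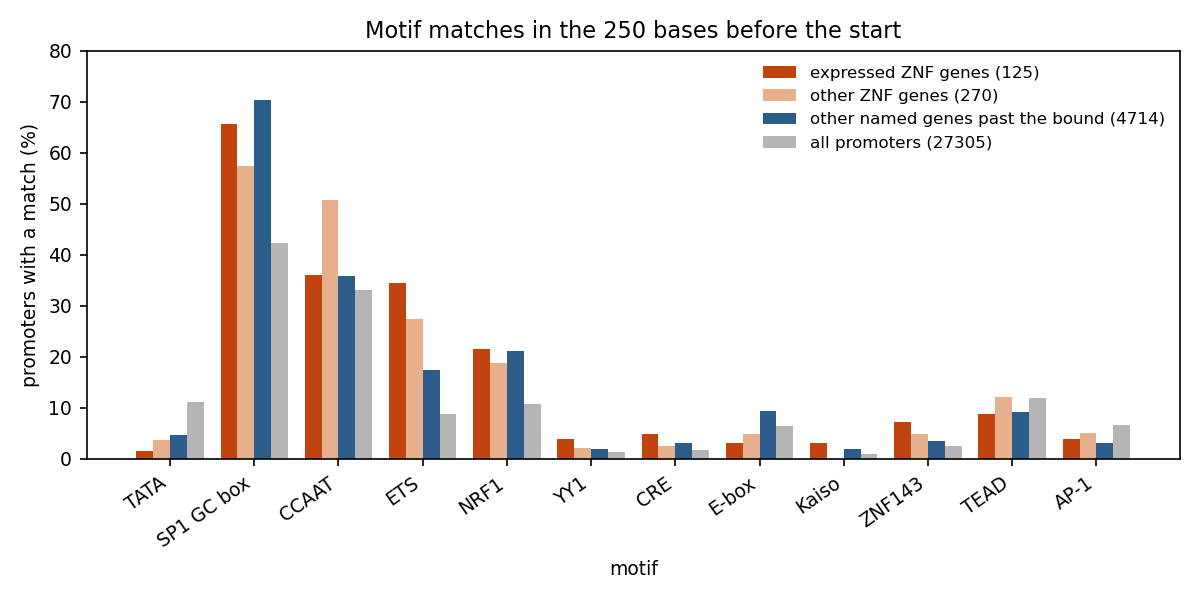
Share of promoters (y axis, percent) with at least 1 match to each motif (x axis) in the 250 bases before the start, for expressed ZNF genes, other ZNF genes, other named genes past the bound and all promoters. The ETS motif stands at 34.4%, 27.4%, 17.4% and 8.82% in these groups.

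Of the members, 137 rested on 1 probe set. The other 7 had 2, and in 5 of these (ZNF248, ZNF383, ZNF384, ZNF551 and ZNF770) the dimmer probe set had the opposite sign. For ZNF551 the brighter set read 4.87 on the stretched and 3.68 on the static array (1.19), and the dimmer one 1.60 and 1.84 (-0.24). Apart from ZNF384 and ZNF451, the dimmer probe sets lay under 3 on both arrays. Among other zinc finger families, the 22 ZBTB genes past the bound, whose proteins join fingers to a BTB domain, had a median of 0.66, with 5 past 2-fold upward (22.7%, background 18.9%) and 0 downward. The 6 ZSCAN and ZKSCAN genes past the bound had a median of 0.22, with 1 at least 2-fold higher. No test of a difference from the ZNF genes was possible with 1 array per condition.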

How the data were processed

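The authors deposited log2 signals of 53617 probe sets for 2 arrays. The submitters' processing notes name RMA; software, version and the normalization between arrays are not given in the sources used here. Array medians were 2.47 (stretched) and 2.57 (static). The platform's annotation, which can be old, named 16098 probe sets, each with 1 gene, and left 37519 unnamed; all 144 members matched RefSeq (GRCh38.p14) symbols by gene ID. The members and lists were chosen with earlier results of these data known. Runs of neighbours and motifs were chosen after values were seen.

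Each array was assigned by its source name. Differences were computed from the deposited log2 values, and counts were made at 2-fold and 1.5-fold, with no p-values. Named genes were the 10 highest and 10 lowest differences, the 8 brightest members, up to 4 per list with the largest differences, and genes at the bound; others were named after their values were seen. Alternatives were other scalings, level filters and probe set averaging. Python 3.11.15, numpy 2.4.6, pandas 2.3.3 and statsmodels 0.14.6 were used, tested on simulated data. The planned grouping by KRAB match and the protein identities were not run, because no protein sequences were used here.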

Additional observations from a re-analysis of the deposited data

How the results depend on the processing

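The count of members at least 2-fold higher was 33 as deposited, 43 with arrays centred on their medians, 19 after quantile normalization, 21 after loess, 14 with arrays centred on reference genes, 17 with the bound on the mean of both values, 20 with the bound at 5, 47 of 471 with no level filter, and 65 at 1.5-fold. With the bound on both values, an alternative chosen after seeing the data, it was 7 (8.33%, against 12.96% of all genes so chosen). With the bound on the mean of both values the share was 15.0%, against 17.0% of all genes. With the bound at 5 it was 19.2%, against 19.5%, and with no level filter 9.98%, against 9.07%. At least 1.5-fold higher as deposited were 65 members (45.1%, against 39.7%). The count at least 2-fold lower was 1 after quantile normalization (background 4.75%). Over all 471 ZNF genes without a level filter it was 8 (1.70%, background 1.93%). At least 1.5-fold lower as deposited was 1 member (background 5.3%). After quantile normalization the median of members not on chromosome 19 was 0.155 and that of the KRAB list 0.225. Scalings act by construction on both members and background. The cause of the different shifts was not tested. Of the 47 genes named by rule, 20 were past 2-fold as deposited, and 9, 7 and 6 of these fell under 2-fold after centring on reference genes, quantile normalization and loess. A sign changed in 4, 3 and 3 of the 47. Averaging probe sets or centring on medians took none of the 20 under 2-fold. No paired analysis was possible because each condition has 1 array. Signals under the bound cannot be told from background, which limits every fold from them.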

Other observations

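Among the 327 ZNF genes under the bound, 14 (4.28%) were 2-fold or more higher, 8 (2.45%) were 2-fold or more lower, and the median difference was 0.08. Of all 8879 named genes under the bound, 213 (2.40%) were higher and 149 (1.68%) lower by that much. The highest were ZNF502 (3.80 on the stretched, 1.60 on the static array, 2.20) and ZNF557 (4.37 and 2.44, 1.93), the lowest ZNF733P (2.18 and 3.42, -1.24) and ZNF157 (1.58 and 2.80, -1.22). ZNF420, a KRAB protein described as a p53 inhibitor, read 1.96 on the stretched and 3.12 on the static array (-1.16). All these signals lay within the background range.

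The AP-1 motif TGANTCA occurred in the promoters of 5 members, and all 5, ZNF3, ZNF317, ZNF460, ZNF512 and ZNF845, were at least 2-fold higher on the stretched array. Of the 120 members without it, 25 were (20.8%). Among other named genes past the bound, 36 of 147 with the motif (24.5%) and 18.4% of 4567 without it were at least 2-fold higher. The TEAD motif was found in 11 members, of which 5 were at least 2-fold higher, against 19.4% of 433 other genes with it and 18.5% of 4281 without it. The E-box was found in 4 members, of which 3 were at least 2-fold higher. ZNF460 and ZNF512 held both it and the AP-1 motif. Of 440 other genes with the E-box 17.7% were at least 2-fold higher, and 18.7% of those without it. The Kaiso core was also found in 4 members, of which 3 were, against 11.7% of 94 other genes with it and 18.7% without it. The NRF1 core was found in 27 members, of which 4 were, against 19.2% of 999 other genes with it and 18.4% without it. Several of these higher members had static values under the bound and entered through the stretched array alone. They were ZNF3 and ZNF845 with AP-1, ZNF79, ZNF330 and ZNF587B with TEAD, and ZNF343 and ZNF850 with Kaiso. The rule thus helped to set these counts. Of the 270 ZNF promoters under the bound, 14 held the AP-1 motif (5.19%), and the differences of those genes were not counted here. These motifs were picked from 12 after the values were seen, and no test was made.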
